A study of Rattus norvegicus with 26 samples.

Results

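Transcripts of soleus muscle were compared between high-capacity runner (HCR) rats with a running wheel and low-capacity runner (LCR) rats with one. The groups were taken from the group written in each sample description, which gives 5 running HCR and 5 running LCR libraries, or 10 of the 26 libraries of the series. HCR and LCR are lines of *Rattus norvegicus* bred from generation to generation for high or low endurance running capacity, here at generation 44, and all rats were aged females. Both running groups were housed in pairs with a voluntary wheel for more than 5 months and had free access to chow and water. The other 16 libraries, 8 sedentary HCR and 8 sedentary LCR, came from rats without wheel access and serve here only for values set beside those of the runners. The sample names read as 1 rat for each library, and n counts libraries. The labels do not say which runners shared a cage or how far each rat ran, so differences between cages or in distance cannot be told apart from the difference between the lines.

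The soleus is a postural muscle of the lower leg made mostly of slow, oxidative type 1 fibres, with a minority of fast type 2A fibres in the rat. Slow and fast fibres use different genes for the same parts of the contractile apparatus, such as the myosin heavy chains and the troponin subunits. Long-chain fatty acids are a main fuel of slow fibres: they are activated to acyl-CoA, carried into mitochondria by the carnitine shuttle and shortened by beta-oxidation, and many genes of this route are known targets of the PPAR nuclear receptors.

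Reads start near the 3' end of a transcript, because oligo(dT) primed the libraries, so counts do not grow with transcript length. Total counts per library ran from 1099961 to 1818964 in running HCR and from 1275153 to 2030810 in running LCR, at which depth a gene of low CPM, its count scaled to a common library total, rests on few counts. Mitochondrially encoded mRNAs took 3.06% to 3.53% of the counts in running HCR and 2.72% to 3.09% in running LCR. Slow-fibre genes were abundant in every group, as the tissue label states: *Myh7*, the type 1 myosin heavy chain, ranged from 10200 to 12000 CPM in running HCR and from 10000 to 11600 CPM in running LCR. Keratinocyte keratins *Krt5* and *Krt14* were at 0 counts in all 10 libraries. Another keratin, *Krt10*, had 1.82 to 5.52 CPM in running HCR and 1.97 to 4.95 CPM in running LCR. The adipocyte gene *Adipoq* had 6.36 to 12.1 CPM in running HCR and 2.35 to 18.6 CPM in running LCR.

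In 3 libraries the labels, or the values beside them, were in conflict. The titles of running HCR 5 and running LCR 5 name the other line, while their genotype and description name the line used here. Of 3 genes that separated the sedentary lines without overlap in a fit of the sedentary libraries alone, running HCR 5 had *LOC102550339*, *Ackr4* and *LOC102555790* at 23.6, 10 and 16.4 CPM, and running LCR 5 had them at 0.784, 0.784 and 0 CPM. Both libraries therefore lay on the side of the line named by their genotype for 3 of 3 genes. The library labelled running HCR 4 lay on the LCR side for 2 of the 3, with 1.58 CPM of *Ackr4* and 0 CPM of *LOC102555790*, and on the HCR side for *LOC102550339*, with 18.9 CPM. Among the 63 genes reported below, its value lay inside the range of the running LCR libraries for 14, against 4, 4, 1 and 4 for running HCR 1, 2, 3 and 5. It was kept. Without it, 12 of those 14 genes were called, all but *Cstpp1* (-0.91, adjusted p = 0.0575) and *Ifi44* (-1.08, adjusted p = 0.0524). The size of the difference was larger in all 14. These 14 were picked because running HCR 4 lay inside the LCR range. A larger difference without it mostly follows from that choice and is no support for the calls. In that refit *Ackr4* stood at 2.94 (adjusted p = 0.00193), *LOC102555790* at 5.78 (adjusted p = 1.06e-05), *Tceal7* at -1.31 (adjusted p = 0.000126), *Nfkbia* at 0.64 (adjusted p = 0.00232), *Aqp7* at 1.99 (adjusted p = 0.0321) and *Cpt1a* at 1.18 (adjusted p = 0.0114).

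Of 10064 genes tested, 63 differed between running HCR and running LCR at an adjusted p under 0.05 (edgeR quasi-likelihood test), 35 higher and 28 lower in HCR. These are 0.626% of the genes tested, with 0.348% called higher and 0.278% called lower. The 5 HCR and 5 LCR libraries did not overlap for 164 genes, 1.63% of those tested, and for 41 of the 63 called genes. The 63 were selected on these same libraries, so their lack of overlap is a description and not separate support. Of the 63, 39 differed at least 2-fold, 20 higher and 19 lower. The last genes to pass, *Tuft1*, *Cpd* and *Fh*, had an adjusted p of 0.049, and the next gene, *Gadd45gip1*, had 0.0503. Without running HCR 4 the count was 67, 40 higher and 27 lower, of which 50 were among the 63. The 13 calls lost without it were *Pdhx*, *LOC120095967*, *Ifi44*, *Cstpp1*, *Tpm1*, *Rpl19*, *Cpd*, *Mvp*, *Slc16a3*, *Pex3*, *Emx2os*, *Zfp955a* and *Sbsn*, with adjusted p from 0.05 (*Pdhx*, rounded) to 0.0864 (*Sbsn*). The count was 32 without running HCR 3, 41 without running LCR 3, 38 without running LCR 5, 35 with only the 2 running groups in the fit, 35 without the 2 libraries of conflicting title and 0 when those 2 libraries were given the line of their title. Of the 63 calls, 27 held in all 10 refits without 1 runner and 18 held in at most 3. Those 18 were *Pex3* and *Cpd* (0 refits), *Cstpp1*, *Tuft1*, *Ivd* and *Fh* (1), *Zfp955a*, *Tpm1*, *Rpl19*, *Slc16a3* and *Sbsn* (2), and *Kiaa0408L*, *Ifi44*, *Slc30a7*, *Hcn2*, *Emx2os*, *Nfkbia* and *Prkx* (3). Across all genes the median log2 fold change was 0.00, and 50.6% of genes lay above 0. The plot of fold change against p shows the called genes.

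**Figure D1:**
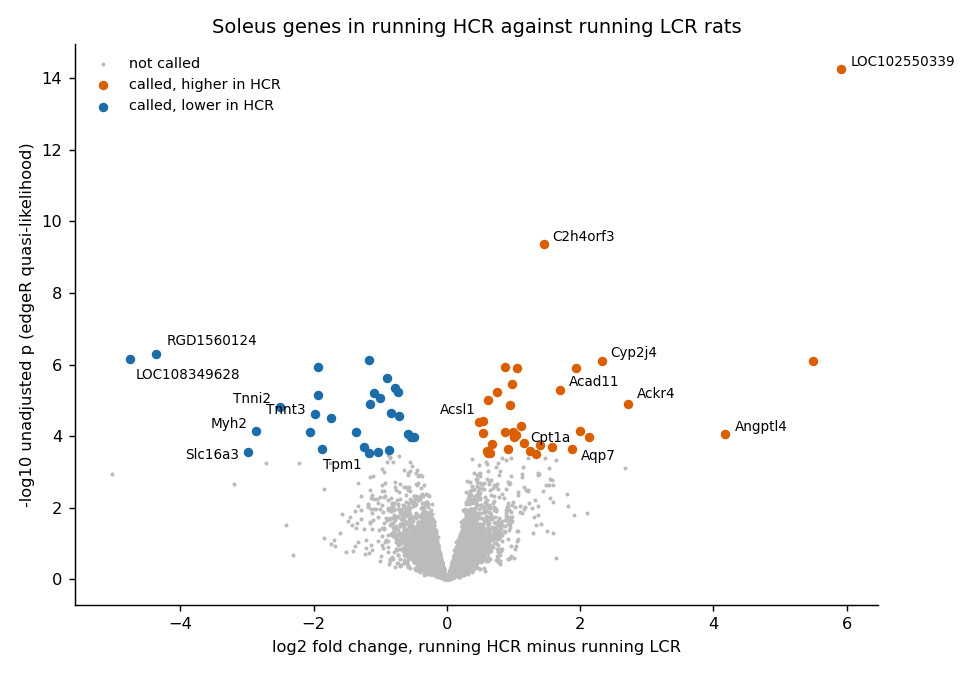
Each point is 1 of the 10064 genes tested, with its log2 fold change (running HCR minus running LCR) on the horizontal axis and the negative log10 of its unadjusted p on the vertical axis. Orange points are the 35 genes called higher and blue points the 28 called lower in HCR at an adjusted p under 0.05; *LOC102550339* and *C2h4orf3* stand highest, and the fast-fibre genes *Myh2*, *Tnni2* and *Tnnt3* lie at the left.

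Among genes of fast fibres, all calls were lower in running HCR. Of 19 fast-fibre genes tested, 4 were called lower and 0 higher, 16 lay below 0, and their median log2 fold change was -0.26, against 0.00 over all genes. The 4 were *Myh2*, the type 2A myosin heavy chain, *Tnni2*, the inhibitory subunit of the fast troponin complex, *Tnnt3*, its tropomyosin-binding subunit, and *Tpm1*, alpha-tropomyosin, which is used in fast fibres and in the heart. *Myh2* had 515, 251, 272, 511 and 545 CPM in running HCR 1 to 5, against 1110, 2980, 3050, 3080 and 4770 CPM in running LCR 1 to 5 (log2 fold change -2.86, SE 0.59, adjusted p = 0.0207). Every running HCR library was lower than every running LCR library, and running LCR 1 was the lowest of the LCR libraries. The *Myh2* call was lost without running HCR 2, running HCR 3 or running LCR 5, and it was lost with the replicate block (adjusted p = 0.0549) and without the 2 libraries of conflicting title (adjusted p = 0.0902).

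*Tnni2* had 154, 102, 63.4, 128 and 112 CPM in running HCR 1 to 5, against 344, 607, 702, 604 and 889 CPM in running LCR 1 to 5 (log2 fold change -2.51, SE 0.46, adjusted p = 0.00599). *Tnnt3* had 321, 184, 184, 423 and 388 CPM in running HCR 1 to 5, against 581, 1050, 1780, 985 and 1510 CPM in running LCR 1 to 5 (log2 fold change -1.98, SE 0.37, adjusted p = 0.00881). The 2 troponin genes are near neighbours on rat chromosome 1, with 7 annotated genes between them. In both, the groups did not overlap, and both kept their call in all 26 refits without 1 library. The annotated span of *Tnni2* on assembly GRCr8 overlaps other genes of the table, among them *Ctsd* and *Syt8*. Its counts are therefore uncertain where strand was not used. *Tnni2* stood at an adjusted p of 0.0508 without the 2 libraries of conflicting title, and *Tnnt3* at 0.125 with only the 2 running groups in the fit. *Tpm1* had 843, 544, 472, 849 and 950 CPM in running HCR 1 to 5, against 1160, 1330, 2030, 1610 and 2090 CPM in running LCR 1 to 5 (log2 fold change -1.17, SE 0.28, adjusted p = 0.0483). Its groups did not overlap either, but its call held in only 2 of the 10 refits without 1 runner. *Tnnc2*, the calcium-binding subunit of fast troponin, averaged 1240 CPM in running HCR and 2390 CPM in running LCR without overlap, and did not pass (log2 fold change -0.94, adjusted p = 0.105).

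Genes of the fastest fibres were not called. *Myh1* (type 2X) stood at -0.73 (SE 0.76, adjusted p = 0.853) and at 0.63 without running LCR 3, *Myh4* (type 2B) at 0.96 (SE 0.77, adjusted p = 0.798) and at -0.49 without running HCR 2, and *Atp2a1*, the fast-fibre calcium pump SERCA1, at -0.19 (adjusted p = 0.896). Expressed as a share of the counts of the 4 adult myosin heavy chain genes, *Myh2* took 4.71%, 2.26%, 2.20%, 4.12% and 4.40% in running HCR 1 to 5, against 8.59%, 21.3%, 20.9%, 21.8% and 32.1% in running LCR 1 to 5. The ranges did not touch. In sedentary rats the share of *Myh2* averaged 11.5% ± 7.25 in HCR and 20.0% ± 6.57 in LCR (SD, n = 8 each), with overlapping ranges of 3.07% to 22.8% and 8.79% to 28.6%. *Myh7* took 93.0% to 96.8% of these counts in running HCR and 67.4% to 89.7% in running LCR. In bulk muscle, fewer fibres of a type and less of its RNA per fibre cannot be told apart.

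**Figure D2:**
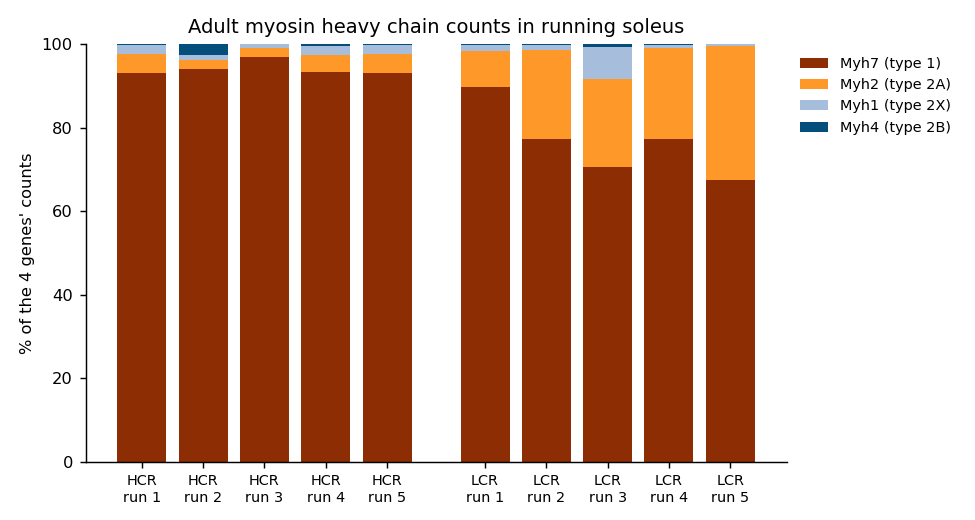
Each bar is 1 running library, HCR on the left and LCR on the right, and the coloured parts are the percentages of counts of *Myh7*, *Myh2*, *Myh1* and *Myh4* among these 4 genes. *Myh2* takes 2.20% to 4.71% of a bar in HCR and 8.59% to 32.1% in LCR.

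Among slow-fibre genes none passed. Of 19 tested, 0 were called, 11 lay above 0 and 8 below, and the median was 0.05. *Myh7* stood at 0.06 (SE 0.14, adjusted p = 0.949), the slow troponin genes *Tnni1*, *Tnnt1* and *Tnnc1* at 0.19, 0.05 and 0.12, and *Atp2a2*, the slow-fibre and cardiac calcium pump SERCA2, at 0.31 (adjusted p = 0.591). The smallest p of the list was that of *Ankrd2*, a stretch-responsive muscle gene, at -0.84 (adjusted p = 0.459).

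For a view of the DNA at the start of fast-fibre genes, the 300-base windows of *Myh2* and *Tnni2* from 250 bases before to 50 bases after the annotated start are shown, on the coding strand, from RefSeq on assembly GRCr8 (chr10:52355489-52355788, + strand, and chr1:207024240-207024539, + strand). Capitals mark TATAAA and CANNTG, the TATA box and the E-box bound by myogenic bHLH factors, on either strand.
Myh2: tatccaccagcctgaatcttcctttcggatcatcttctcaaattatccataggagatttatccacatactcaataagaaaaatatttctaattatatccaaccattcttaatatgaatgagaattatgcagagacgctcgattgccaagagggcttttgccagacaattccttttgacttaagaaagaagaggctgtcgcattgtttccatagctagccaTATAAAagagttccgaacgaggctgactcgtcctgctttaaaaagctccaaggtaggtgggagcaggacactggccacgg
Tnni2: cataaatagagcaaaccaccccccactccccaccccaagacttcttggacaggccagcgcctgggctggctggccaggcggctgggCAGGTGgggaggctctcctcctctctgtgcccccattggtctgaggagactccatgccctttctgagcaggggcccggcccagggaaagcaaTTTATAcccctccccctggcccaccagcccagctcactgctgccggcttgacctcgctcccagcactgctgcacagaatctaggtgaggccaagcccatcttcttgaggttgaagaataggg
The *Myh2* window holds 1 TATAAA with its first letter at position -30 and 0 E-box matches, and the *Tnni2* window holds 1 TATAAA match at -72, on the opposite strand, and 1 E-box match. Over 33469 rat promoters of the same length, 14.2% hold a TATAAA and 72.1% a CANNTG. The matches to the 2 motifs do not overlap. A match is a match of letters, and the 3' counts do not read these windows.

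A lactate exporter moved in the direction of the fast-fibre genes. *Slc16a3* encodes MCT4, the monocarboxylate transporter of glycolytic fibres, and had 1.1, 1.1, 3.41, 3.15 and 5.45 CPM in running HCR 1 to 5, against 7.19, 9.36, 50.5, 17.3 and 19.6 CPM in running LCR 1 to 5 (log2 fold change -2.98, SE 0.70, adjusted p = 0.0467). The groups did not overlap, yet the call held in only 2 of the 10 refits without 1 runner, and running LCR 3 stood far above the rest. *Slc16a1*, which encodes MCT1, the transporter of oxidative fibres, stood at -0.07 (adjusted p = 0.938), and *Slc16a7*, which encodes the high-affinity MCT2, at 0.94 (adjusted p = 0.15). Of the 15 genes of lactate and glucose transport tested, *Slc16a3* was the 1 called, and the median was -0.02.

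Genes that take up and burn fatty acids all lay on the side of running HCR. All 31 tested genes of fatty acid uptake and oxidation had a log2 fold change above 0, from 0.02 to 1.70, with a median of 0.35 in runners against 0.07 for the same genes in sedentary rats. Of the 31, 3 were called higher and 0 lower. Between the sedentary lines, 4 of the 31 were called. The test of the running against the sedentary line difference, given below, called 0 genes, so the list is not particular to runners. An unadjusted p under 0.05 was reached by 15 of the 31 and by 863 of the 10064 genes tested. The list was written with earlier results of these data known, and its members were read in the same libraries. These counts are therefore a description and not separate support. The counts of the list summed to 5470, 6890, 6830, 4980 and 6750 CPM in running HCR 1 to 5, against 5310, 4990, 3960, 4990 and 5290 CPM in running LCR 1 to 5. Of the HCR libraries, running HCR 4 alone lay inside the LCR range. Over the alternative settings and refits the median of the list lay between 0.16, with the line of the title, and 0.41, without running HCR 4.

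The 3 called members act at different steps. *Acsl1*, the main long-chain acyl-CoA synthetase of muscle, had 264, 288, 323, 250 and 258 CPM in running HCR 1 to 5, against 210, 195, 167, 175 and 203 CPM in running LCR 1 to 5 (log2 fold change 0.54, SE 0.12, adjusted p = 0.0128). *Eci2*, an isomerase that prepares unsaturated fatty acids for beta-oxidation, had 27.5, 29.8, 30.7, 17.3 and 29.1 CPM in running HCR 1 to 5, against 14.9, 16.2, 9.64, 14.2 and 11.8 CPM in running LCR 1 to 5 (log2 fold change 1.00, SE 0.23, adjusted p = 0.0234). Neither gene overlapped between the groups, and running HCR 4 was the lowest HCR library in both. The call of *Acsl1* held in 7 of the 10 refits without 1 runner, and that of *Eci2* in only 4. The *Eci2* call was also lost without the 2 libraries of conflicting title. *Acad11*, an acyl-CoA dehydrogenase, had 15.4, 18.8, 14.3, 5.51 and 15.5 CPM in running HCR 1 to 5, against 4.42, 7.39, 2.27, 4.95 and 1.57 CPM in running LCR 1 to 5 (log2 fold change 1.70, SE 0.32, adjusted p = 0.00338). In *Acad11*, running HCR 4 lay inside the LCR range and the other 4 HCR libraries above it, and without running HCR 4 the difference was 1.88 (adjusted p = 0.000635).

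Among the members that did not pass, *Hadha*, the alpha subunit of the mitochondrial trifunctional protein, stood nearest (0.60, adjusted p = 0.0729) and passed without running HCR 4 (0.68, adjusted p = 0.0349). *Hadha* passed in 6 of the 37 other settings and refits, over which its difference ran from 0.10 to 0.71. *Cpt2*, the inner enzyme of the carnitine shuttle, stood at 0.60 (adjusted p = 0.131). Groups did not overlap in *Hadha*, in *Etfdh*, which passes electrons from beta-oxidation to ubiquinone (0.66, adjusted p = 0.133), in *Fabp3*, the fatty acid binding protein of heart and slow muscle (0.69, adjusted p = 0.175), or in *Acad9*, an acyl-CoA dehydrogenase that also assembles complex I (0.93, adjusted p = 0.395); these were named after their values were seen. *Cpt1b*, the outer carnitine palmitoyltransferase of muscle, stood at 0.14 (adjusted p = 0.82). The plot of the 31 members sets these values beside those of sedentary rats.

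**Figure D3:**
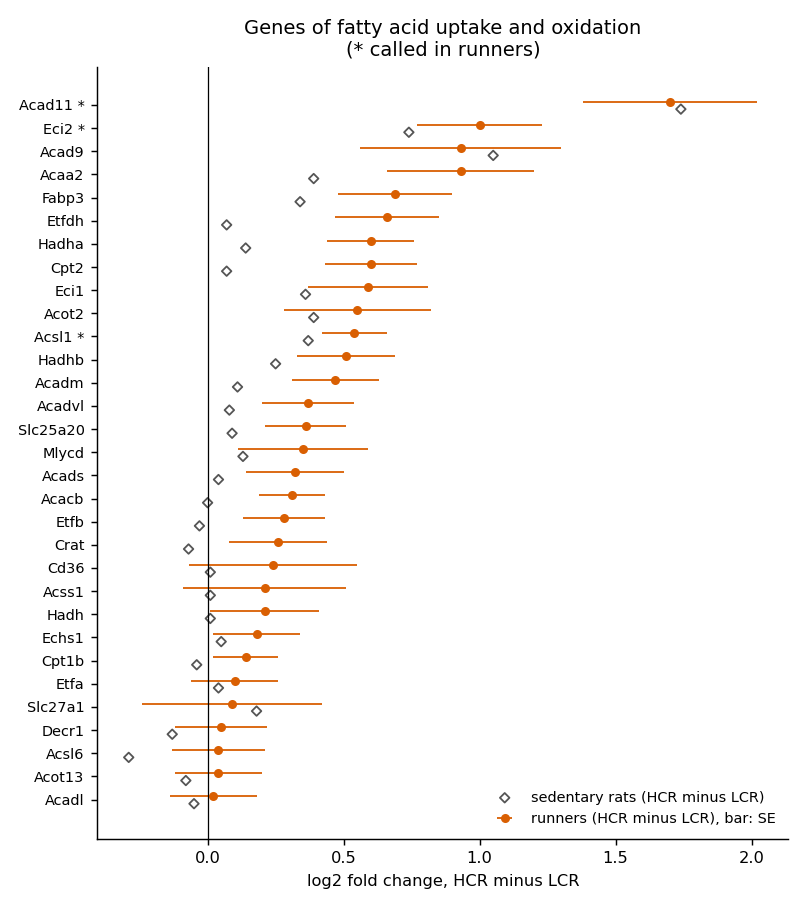
Each row is 1 of the 31 tested genes of fatty acid uptake and oxidation, with the log2 fold change of HCR minus LCR on the horizontal axis, as orange circles with SE bars for runners and open diamonds for sedentary rats. All circles lie above 0, from 0.02 to 1.70; stars mark *Acad11*, *Eci2* and *Acsl1*, the 3 genes called in runners.

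Genes known as PPAR targets or as responsive to fasting had 2 of 17 tested members called higher and 0 lower, with 13 above 0 and a median of 0.34. *Angptl4* encodes a secreted inhibitor of lipoprotein lipase and had 19.2, 12.7, 28.7, 0 and 7.27 CPM in running HCR 1 to 5, against 0.553, 0.985, 0, 1.86 and 0 CPM in running LCR 1 to 5 (log2 fold change 4.18, SE 0.89, adjusted p = 0.0216). Running HCR 4 was at 0 counts and lay within the LCR range, while the other 4 HCR libraries lay above all LCR libraries. Without running HCR 4 the difference was 4.47 (adjusted p = 0.00204), the call held in 4 of the 10 refits without 1 runner, and it was lost with no filter on low counts, without the 2 libraries of conflicting title, with voom and quality weights (3.30, adjusted p = 0.269) and with the replicate block (4.09, adjusted p = 0.0591).

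*Cpt1a*, the liver form of carnitine palmitoyltransferase, which muscle also expresses at a lower level, had 41.2, 37, 30.7, 24.4 and 28.2 CPM in running HCR 1 to 5, against 11.6, 18.7, 11.9, 26 and 6.27 CPM in running LCR 1 to 5 (log2 fold change 1.11, SE 0.24, adjusted p = 0.0162). Running LCR 4 reached the level of running HCR 4, and the other libraries did not mix. The call of *Cpt1a* held in 6 of the 10 refits without 1 runner and in 8 of the 11 other settings. It was lost with only the 2 running groups in the fit, without the 2 libraries of conflicting title and with the line of the title. Of the other PPAR-related genes, *Pdk4*, the kinase that switches off pyruvate dehydrogenase, stood at 1.36 (adjusted p = 0.37), *Ucp3*, a mitochondrial carrier of muscle, at 2.10 (adjusted p = 0.348), *Plin5*, a lipid droplet coat protein that contacts mitochondria, at 1.12 (adjusted p = 0.119, and 0.0448 without running HCR 4), and the coactivator *Ppargc1a* at -0.24 (adjusted p = 0.777). *Plin5* passed in 2 of the 37 other settings and refits, over which its difference ran from 0.45 to 1.27.

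The start windows of *Angptl4* (chr7:15258632-15258931, - strand) and *Cpt1a* (chr1:209995910-209996209, + strand) are shown in the same way, since both genes are known PPAR targets, again with TATAAA and CANNTG in capitals.
Angptl4: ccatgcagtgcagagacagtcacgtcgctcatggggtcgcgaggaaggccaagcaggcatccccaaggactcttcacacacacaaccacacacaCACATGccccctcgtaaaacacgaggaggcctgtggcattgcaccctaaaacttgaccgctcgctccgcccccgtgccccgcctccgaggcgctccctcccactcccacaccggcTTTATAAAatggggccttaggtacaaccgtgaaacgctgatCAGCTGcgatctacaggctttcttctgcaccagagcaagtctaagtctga
Cpt1a: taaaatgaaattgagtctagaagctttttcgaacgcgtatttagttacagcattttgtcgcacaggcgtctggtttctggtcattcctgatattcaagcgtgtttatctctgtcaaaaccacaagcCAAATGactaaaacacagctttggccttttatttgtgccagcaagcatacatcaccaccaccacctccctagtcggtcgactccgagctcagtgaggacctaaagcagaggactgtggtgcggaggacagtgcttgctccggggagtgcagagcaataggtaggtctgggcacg
The *Angptl4* window holds 2 TATAAA matches, 1 on each strand, at -41 and -39, and 2 E-box matches, and the *Cpt1a* window holds 0 and 1.

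Lipid storage and lipolysis genes had 1 of 19 members called higher and 0 lower, with 16 above 0 and a median of 0.29. *Aqp7*, the channel that lets glycerol leave fat-storing cells, had 7.15, 8.28, 17.1, 6.3 and 15.5 CPM in running HCR 1 to 5, against 3.32, 1.48, 0.567, 3.09 and 7.06 CPM in running LCR 1 to 5 (log2 fold change 1.87, SE 0.45, adjusted p = 0.044). Running HCR 4 lay inside the LCR range at 6.30 CPM, below running LCR 5 at 7.06 CPM. The call of *Aqp7* held in only 4 of the 10 refits without 1 runner. It was also lost with only the 2 running groups in the fit and with the line of the title. *Agpat2* and *Gpam*, which make phosphatidic acid and its precursor for triglycerides, stood at 1.57 (adjusted p = 0.139) and 0.77 (adjusted p = 0.182). All markers of fat cells given here overlapped between the groups. *Plin1* had 0.788 to 3.64 CPM in running HCR and 1.57 to 3.09 CPM in running LCR, and *Lep* had 0.909 to 2.20 CPM in running HCR and 0 to 2.77 CPM in running LCR. *Cfd*, which encodes adipsin, averaged 115 ± 40.4 CPM in running HCR and 84.9 ± 22.8 CPM in running LCR (SD, n = 5 each; log2 fold change 0.43, adjusted p = 0.693). *Retn*, resistin, averaged 10.8 ± 2.37 and *Fabp4*, a fatty acid carrier of fat cells and endothelium, 97.7 ± 27.3 CPM in running HCR, against 6.38 ± 2.18 and 83.4 ± 13.3 CPM in running LCR (log2 fold changes 0.76 and 0.23). Of 7 adipocyte markers tested, 0 were called, 5 lay above 0, and the median was 0.23. The list summed to 5180 to 6410 CPM in running HCR and 6030 to 6870 CPM in running LCR, most of it *Car3*, which slow muscle also expresses; the markers' part in the lipid values was not tested.

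**Figure D4:**
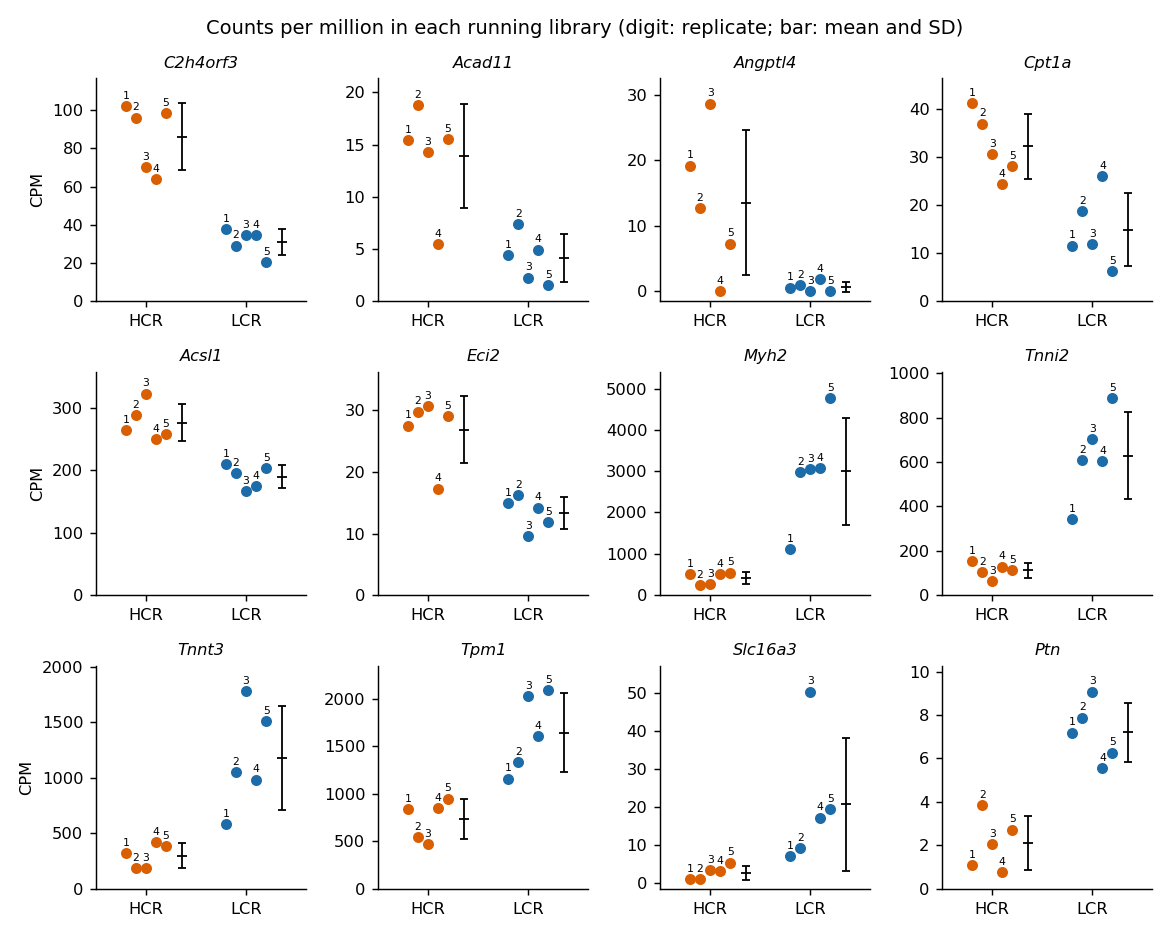
Each panel is 1 called gene, with CPM on a linear vertical axis and the 5 running HCR libraries (orange) left of the 5 running LCR libraries (blue); digits are replicate numbers, and the bar beside each group is its mean and SD. Running HCR 4 lies with the LCR libraries in *Acad11* and *Angptl4*, and the groups stand apart in *C2h4orf3*, *Acsl1*, *Myh2*, *Tnni2*, *Tnnt3*, *Tpm1*, *Slc16a3* and *Ptn*.

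No respiratory chain gene passed. Of 74 nuclear genes of oxidative phosphorylation, 0 were called, 51 lay above 0 and the median was 0.06. Of 13 mitochondrially encoded mRNAs, 0 were called, 10 lay above 0 and the median was 0.11; *COX1* (0.37, adjusted p = 0.455) and *COX2* (0.24, adjusted p = 0.639), subunits of complex IV, did not overlap between the groups. Of 24 genes of the tricarboxylic acid cycle, 1 was called. *Fh*, fumarate hydratase, had 180, 171, 147, 112 and 131 CPM in running HCR 1 to 5, against 114, 109, 73.2, 109 and 76.1 CPM in running LCR 1 to 5 (log2 fold change 0.62, SE 0.15, adjusted p = 0.049), with running HCR 4 inside the LCR range and 0.69 (adjusted p = 0.0232) without that library. *Cs*, citrate synthase, stood at 0.06 (adjusted p = 0.92) and *Vegfa*, the main angiogenic growth factor, at -0.05 (adjusted p = 0.972). The call of *Fh* was lost without any 1 of the other 9 runners and in 6 of the 11 other settings.

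Other enzymes of mitochondria and of small-molecule metabolism were also called. *Bckdhb*, a subunit of the branched-chain keto acid dehydrogenase, had 195, 220, 206, 155 and 205 CPM in running HCR 1 to 5, against 121, 122, 128, 142 and 128 CPM in running LCR 1 to 5 (log2 fold change 0.62, SE 0.12, adjusted p = 0.00479). *Cyp2j4*, a cytochrome P450 that makes epoxides of polyunsaturated fatty acids, had 11, 10.5, 3.41, 7.88 and 6.36 CPM in running HCR 1 to 5, against 1.66, 0.492, 1.7, 1.86 and 2.35 CPM in running LCR 1 to 5 (log2 fold change 2.32, SE 0.39, adjusted p = 0.00115). The groups did not overlap in either. *Ivd*, the leucine-pathway enzyme isovaleryl-CoA dehydrogenase, was higher by 0.60 (SE 0.15, adjusted p = 0.0455), a call that held in 1 of the 10 refits without 1 runner and in 6 of the 11 other settings. *Pdhx*, the subunit that binds E3 in pyruvate dehydrogenase, was lower (-0.54, adjusted p = 0.0234). Also higher were *Cmc4*, a small protein of the mitochondrial intermembrane space (0.95), *Ahcyl2*, a relative of adenosylhomocysteinase (0.99), the hydrolases *Abhd1* (1.99) and *Cmbl* (1.04), and *Pgap4*, an enzyme of GPI-anchor maturation (1.05, SE 0.18, adjusted p = 0.00116). *Pgap4* had 81.4, 37.5, 57.3, 47.3 and 71.8 CPM in running HCR 1 to 5, against 36.5, 37.4, 25, 16.7 and 25.9 CPM in running LCR 1 to 5. Its groups nearly touched, at running HCR 2 and running LCR 2.

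Of 21 peroxisome genes, 0 were called higher and 1 lower, with 17 above 0 and a median of 0.20. *Pex3*, needed to insert peroxisomal membrane proteins, had 5.5, 4.97, 4.78, 3.15 and 1.82 CPM in running HCR 1 to 5, against 9.95, 10.3, 8.51, 11.8 and 9.41 CPM in running LCR 1 to 5 (log2 fold change -1.24, SE 0.30, adjusted p = 0.0409). The call of *Pex3* was lost in each of the 10 refits without 1 runner. *Cat*, catalase, stood at 0.45 (adjusted p = 0.15) and *Pex19*, the partner of Pex3 in membrane protein import, at 0.70 (adjusted p = 0.221).

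The gene of smallest adjusted p among those with a full symbol was a regulator of calcium pumps. *C2h4orf3* is the rat counterpart of human C4orf3, which encodes another-regulin, a micropeptide that binds SERCA pumps. It had 102, 96.1, 70.3, 63.8 and 98.2 CPM in running HCR 1 to 5, against 37.6, 29.1, 34.6, 34.6 and 20.4 CPM in running LCR 1 to 5 (log2 fold change 1.45, SE 0.17, adjusted p = 2.21e-06). The lowest HCR library stood well above the highest LCR library, and the call held in all 26 refits and in all other settings except the line of the title. In sedentary rats its range was 36.5 to 91.5 CPM in HCR and 22.8 to 39.9 CPM in LCR. Of 19 genes of excitation and calcium handling tested, 0 were called and the median was -0.01.

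Signalling genes were called in both directions. *Ackr4*, a scavenger receptor of chemokines, had 6.05, 5.52, 10.2, 1.58 and 10 CPM in running HCR 1 to 5, against 1.11, 0, 0, 3.09 and 0.784 CPM in running LCR 1 to 5 (log2 fold change 2.72, SE 0.53, adjusted p = 0.00554), with running HCR 4 below running LCR 4. Its annotated span on assembly GRCr8 overlaps that of *Acad11*, so reads of the 2 genes may have been counted together, and a match in their differences is not that of 2 separate measurements. *Pde7a*, a phosphodiesterase of cyclic AMP, had 11, 11.6, 8.87, 7.09 and 10.9 CPM in running HCR 1 to 5, against 18.8, 23.6, 18.7, 21 and 17.3 CPM in running LCR 1 to 5 (log2 fold change -1.0, SE 0.19, adjusted p = 0.00433). *Pik3c2a*, a class II phosphoinositide 3-kinase, had 45.1, 54.7, 38.9, 30.7 and 23.6 CPM in running HCR 1 to 5, against 85.7, 96.5, 58.4, 104 and 90.2 CPM in running LCR 1 to 5 (log2 fold change -1.15, SE 0.22, adjusted p = 0.00554). Neither gene overlapped between groups.

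Of 15 known glucocorticoid targets, 2 were called higher and 0 lower, with 14 above 0 and a median of 0.22. *Pik3r1*, the main regulatory subunit of class I phosphoinositide 3-kinase, had 502, 507, 466, 395 and 502 CPM in running HCR 1 to 5, against 389, 322, 381, 346 and 264 CPM in running LCR 1 to 5 (log2 fold change 0.48, SE 0.10, adjusted p = 0.0132). *Nfkbia*, the inhibitor of NF-kappaB, had 380, 388, 394, 219 and 205 CPM in running HCR 1 to 5, against 213, 201, 208, 267 and 197 CPM in running LCR 1 to 5 (log2 fold change 0.54, SE 0.12, adjusted p = 0.0213). Groups did not overlap in *Pik3r1*, whereas running HCR 4 and 5 lay inside the LCR range in *Nfkbia*. *Zbtb16*, a strong glucocorticoid target, stood at 0.43 (adjusted p = 0.37).

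*Ptn* encodes pleiotrophin, a heparin-binding growth factor of nerve and muscle, and had 1.1, 3.86, 2.05, 0.788 and 2.73 CPM in running HCR 1 to 5, against 7.19, 7.88, 9.08, 5.57 and 6.27 CPM in running LCR 1 to 5 (log2 fold change -1.74, SE 0.36, adjusted p = 0.0106). All HCR libraries lay below all LCR libraries, at a level of few counts. *Itgav*, the alpha V integrin, was lower (-0.72, adjusted p = 0.00959), as was *Amotl2*, an angiomotin of the Hippo pathway (-0.84, adjusted p = 0.00847). *Hcn2*, a pacemaker channel, was higher by 1.39 (adjusted p = 0.0365) and *Prkx*, a cyclic AMP-dependent kinase, by 0.91 (adjusted p = 0.044).

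Genes of transcription, ribosome making and other roles were also among the calls. *Pagr1*, a partner of histone H3K4 methyltransferase complexes, had 119, 97.2, 130, 116 and 106 CPM in running HCR 1 to 5, against 66.9, 59.1, 86.8, 58.8 and 38.4 CPM in running LCR 1 to 5 (log2 fold change 0.87, SE 0.15, adjusted p = 0.00116). *Gtpbp4*, a GTPase that matures the large ribosomal subunit, had 28.6, 29.3, 23.9, 17.3 and 19.1 CPM in running HCR 1 to 5, against 8.85, 12.8, 14.2, 11.8 and 13.3 CPM in running LCR 1 to 5 (log2 fold change 0.97, SE 0.18, adjusted p = 0.00266). *Riok1*, a kinase that matures the small ribosomal subunit, went the other way, with 37.4, 37, 44.3, 43.3 and 43.6 CPM in running HCR 1 to 5, against 76.3, 80.3, 62.4, 65.6 and 58 CPM in running LCR 1 to 5 (log2 fold change -0.74, SE 0.14, adjusted p = 0.00338). In these genes the groups did not overlap. *Dsp*, which encodes the desmosome protein desmoplakin, had 13.7, 10.5, 19.1, 16.5 and 13.6 CPM in running HCR 1 to 5, against 2.21, 4.92, 3.4, 4.95 and 3.14 CPM in running LCR 1 to 5 (log2 fold change 1.94, SE 0.33, adjusted p = 0.00116). On rat chromosome 17 *Dsp* and *Riok1* have 1 annotated gene between them and differed in opposite directions. Of the keratinocyte list 3 genes were tested, and 4 of its 14 members were at 0 in all runners. *Dsp* was called higher and *Sbsn*, a secreted epithelial protein, was called lower, with 0.55, 1.1, 2.05, 0.788 and 2.73 CPM in running HCR 1 to 5, against 5.53, 5.91, 3.97, 7.42 and 2.35 CPM in running LCR 1 to 5 (log2 fold change -1.88, SE 0.46, adjusted p = 0.0439). The call of *Sbsn* held in 2 of the 10 refits without 1 runner and in 4 of the 9 other settings that tested it.

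*Abca8a*, an ABC transporter of lipids, had 153, 110, 86.6, 86.6 and 93.6 CPM in running HCR 1 to 5, against 198, 222, 168, 186 and 137 CPM in running LCR 1 to 5 (log2 fold change -0.78, SE 0.14, adjusted p = 0.00333). *Tceal7*, a small nuclear regulator, had 200, 193, 141, 300 and 150 CPM in running HCR 1 to 5, against 380, 510, 277, 389 and 530 CPM in running LCR 1 to 5 (log2 fold change -1.09, SE 0.19, adjusted p = 0.00356). A single HCR library lay inside the LCR range in *Abca8a* (running HCR 1) and in *Tceal7* (running HCR 4).

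The other called genes with a full symbol were these. Higher in HCR were *Mvp*, the major vault protein (0.87), *Reep6*, a shaper of endoplasmic reticulum (2.13), the antisense RNA *Emx2os* (1.16), *Kiaa0408L* (0.67), the zinc transporter *Slc30a7* (1.57), the zinc finger gene *Zfp955a* (1.25), *Tuft1* (1.33) and *Cpd*, carboxypeptidase D (0.65). Lower were *Cdv3l1* (-1.37), *Cstpp1*, a centriolar protein (-0.87), and *Ifi44*, an interferon-induced gene (-1.03). *Cpd* and *Tuft1* each kept their call in 5 of the 11 other settings, *Cpd* in 0 and *Tuft1* and *Cstpp1* in 1 of the 10 refits without 1 runner. Counts of *Emx2os* overlap the *Emx2* gene. In the annotation 16 of the 63 called genes overlap some other gene of the table, among them *Tnni2*, *Slc16a3*, *Rpl6* and *Rpl19*. Counts of all 16 are uncertain where strand was not used.

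Of 70 cytosolic ribosomal protein genes, 0 were called higher and 2 lower, 63 lay below 0, and the median was -0.12, which stayed between -0.18 and -0.08 over all settings and refits. The 2 called members were *Rpl6*, with 152, 165, 97.6, 122 and 105 CPM in running HCR 1 to 5, against 183, 216, 214, 160 and 191 CPM in running LCR 1 to 5 (log2 fold change -0.59, SE 0.13, adjusted p = 0.0216), and *Rpl19*, with 393, 277, 239, 244 and 197 CPM in running HCR 1 to 5, against 397, 396, 379, 363 and 357 CPM in running LCR 1 to 5 (log2 fold change -0.49, SE 0.11, adjusted p = 0.0234). In each, 1 HCR library lay inside the LCR range. *Rps28* stood at 0.37 (adjusted p = 0.0615) while its near copy *LOC108352861*, annotated as *Rps28-ps5*, was called higher, with 119, 96.6, 58, 85.1 and 76.4 CPM in running HCR 1 to 5, against 55.9, 54.7, 55, 45.2 and 47.8 CPM in running LCR 1 to 5 (log2 fold change 0.75, SE 0.14, adjusted p = 0.00338). Reads of such near-identical copies can be split between genes by the counting, so both are uncertain. The summed CPM of the list overlapped, at 15300 to 21900 in running HCR and 17100 to 21500 in running LCR.

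Of the 63 genes, 9 have no full symbol. *LOC102550339*, a long non-coding RNA of chromosome 5, had 25.3, 45.3, 48.4, 18.9 and 23.6 CPM in running HCR 1 to 5, against 1.66, 0, 0, 0 and 0.784 CPM in running LCR 1 to 5 (log2 fold change 5.92, SE 0.45, adjusted p = 5.7e-11). *LOC102555790*, a long non-coding RNA of chromosome 10, had 12.6, 8.83, 4.09, 0 and 16.4 CPM in running HCR 1 to 5, against 0, 0.492, 0, 0 and 0 CPM in running LCR 1 to 5, which is 63 counts in HCR against 1 in LCR (ratio 71.7, exact 95% interval 12.4 to 2880, counting error only). Running HCR 4 was at 0 in this gene. *LOC108349628* had 0.55, 0, 0, 0 and 0 CPM in running HCR 1 to 5, against 7.19, 3.45, 1.7, 6.19 and 9.41 CPM in running LCR 1 to 5, or 1 count in HCR against 45 in LCR (LCR over HCR 39.6, exact 95% interval 6.75 to 1600). *RGD1560124* had 0.55, 0, 0.682, 0 and 0 CPM in running HCR 1 to 5, against 5.53, 12.8, 5.67, 6.19 and 3.14 CPM in running LCR 1 to 5, or 2 counts against 60 (LCR over HCR 26.4, exact 95% interval 6.99 to 223). These genes were read in nearly every library of one line and hardly at all in the other.

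*LOC103691688* had 57.7, 54.1, 61.4, 36.2 and 28.2 CPM in running HCR 1 to 5, against 118, 115, 106, 115 and 85.5 CPM in running LCR 1 to 5 (log2 fold change -1.17, SE 0.19, adjusted p = 0.00115). *LOC108349921*, a long non-coding RNA, had 5.5, 3.86, 6.14, 8.66 and 8.18 CPM in running HCR 1 to 5, against 29.9, 28.1, 26.7, 22.9 and 11.8 CPM in running LCR 1 to 5 (log2 fold change -1.94, SE 0.33, adjusted p = 0.00116). *LOC120102924*, a long non-coding RNA with 2 annotated genes between it and *LOC102550339*, had 3.3, 4.97, 1.36, 2.36 and 4.55 CPM in running HCR 1 to 5, against 14.9, 14.3, 9.64, 10.5 and 15.7 CPM in running LCR 1 to 5 (log2 fold change -1.94, SE 0.37, adjusted p = 0.00376). All 3 were lower in HCR without overlap, and *LOC120095967* was lower as well (-2.06, adjusted p = 0.0207). Called genes lay near each other in the genome in 9 pairs with at most 30 annotated genes between them, of which 4 pairs differed in the same direction. *Pagr1* and *Mvp*, both higher, are adjacent. The 9 pairs are made of 12 genes, the overlapping *Acad11* and *Ackr4* among them. How many pairs genes picked at random would give was not worked out, so the count is a description. Reads of both lines were aligned to 1 rat assembly, and whether sequence differences between the lines at the counted 3' ends bear on these values was not tested.

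Of 36 gene lists, 26 had 0 called members, with medians from -0.54 to 0.23. Collagen and matrix genes had 26 of 29 members below 0 (median -0.27, 0 called), against a median of 0.21 for the same genes in sedentary rats. MHC class II genes had 5 of 6 below 0 (median -0.54, 0 called), and *Cd74*, the invariant chain, stood at -0.47 (adjusted p = 0.398). Immediate early genes had 14 of 17 below 0 (median -0.25, 0 called), with *Nr4a1* at -0.74 (adjusted p = 0.373). Macrophage markers (15 tested, median 0.09), endothelial markers (14 tested, median 0.13), satellite cell markers (7 tested, median 0.03) and Schwann cell and nerve genes (10 tested, median -0.10) had 0 called.

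In sedentary rats the line difference had the same sign for 62 of the 63 genes. The sedentary comparison shares no library with the running one, though 1 fit estimated the spread for both, and it called 274 genes, 2.72% of those tested. Of the 63 running calls, 38 were also sedentary calls and 25 were not, 11 higher and 14 lower. The median size of the log2 fold change over the 63 was 1.15 in runners and 0.68 in sedentary rats, and it was larger in runners for 56 genes; since the 63 were chosen by their size in runners, this is a description. The difference between the 2 line differences was tested gene by gene with the same fit, and 0 of 10064 genes passed (edgeR, lowest adjusted p = 0.835). DESeq2 and voom also called 0. Of the 10064, 592 had an unadjusted p under 0.05, where chance alone gives a share of about 0.05. That count is near the chance share and is not read as a result.

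The 5 genes of smallest p in that test were *Ptn*, *Fbxo33*, *Usp36*, *Zbtb4* and *Tollip*. *Ptn* stood at -1.74 in runners and at 0.00 in sedentary rats (unadjusted p of the difference 0.000291). *Angptl4* stood at 4.18 in runners and 0.28 in sedentary rats (unadjusted p 0.00361), and *Hcn2* at 1.39 and 0.11 (unadjusted p 0.00449). *Myh2* stood at -2.86 in runners and -1.08 in sedentary rats (unadjusted p 0.0196), *Tnni2* at -2.51 and -1.11 (unadjusted p 0.0192). *Angptl4*, *Hcn2*, *Myh2* and *Tnni2* were picked from the genes called in runners, and their running difference is part of the contrast tested. Their unadjusted p-values are biased low by that choice, and no gene passed the test. *Acad11*, *Ackr4* and *LOC102550339* were near the line of equal differences, at 1.70, 2.72 and 5.92 in runners and 1.74, 3.25 and 6.18 in sedentary rats.

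**Figure D5:**
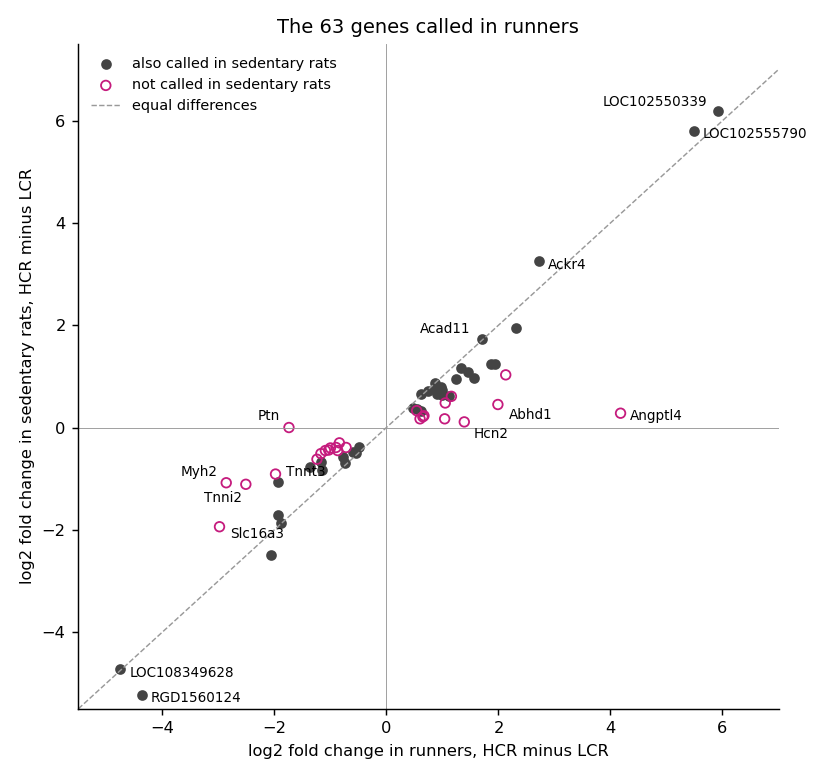
Each point is 1 of the 63 genes called in runners, with the log2 fold change of HCR minus LCR in runners on the horizontal axis and in sedentary rats on the vertical axis; filled points were also called in sedentary rats (38) and open points were not (25), and the dashed line marks equal differences. *Angptl4* (4.18 against 0.28) and *Ptn* (-1.74 against 0.00) lie near the horizontal zero line.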

How the data were processed

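Per the labels' protocols, 3' mRNA-seq libraries were made from soleus RNA. The deposited counts are whole numbers per gene with unequal library totals, hence raw. STAR, featureCounts, cutadapt, UMI-tools, MultiQC and FastQC appear in the submitters' processing notes, with assembly mRatBN7.2 (rn7). Whether molecular identifiers were collapsed, whether strand was used and the settings are not given in the sources used here, so intervals cover counting error only, and overlapping genes are uncertain.

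All 26 libraries entered 1 edgeR 4.0.16 quasi-likelihood fit (R 4.3.3, robust, TMM, filterByExpr by group, no covariate, 10064 of 34034 genes, biological coefficient of variation 0.156). Fold changes are running HCR minus running LCR, calls are at a Benjamini-Hochberg adjusted p under 0.05, and an SE is the absolute log2 fold change over the root of its F. CPM uses plain library totals. P-values weigh a group difference against a spread between libraries that was estimated from all 26, the sedentary ones included. In 76 same-group pairs, chi-square per degree of freedom ran from 2.09 to 10.3, so no library was a re-sequenced copy of another in its group. Pairs across groups were not checked. 0 columns belonged to no sample. Alternatives used DESeq2 1.42.0, limma 3.58.1, other factors and filters, both readings of the titles and each library left out.

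The comparison, the gene lists and the genes named were chosen with earlier results of these data known. All called genes are accounted for except 1 that is not reported here, the 12 of smallest adjusted p in each direction and those of a list with the value in every library, and 20 contractile and metabolic genes were named whatever their p. Gene neighbours and promoters came from RefSeq on GRCr8, not the authors' build: 60 of 63 called genes matched.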

Additional observations from a re-analysis of the deposited data

Results flagged for a closer look

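Within the groups of 5 runners, 202 sets of values (the 63 called genes, the share of *Myh2*, the summed CPM of the 36 lists and the library totals) were searched for a single library far from the other 4, by Dixon's gap test at its 95% critical value. It picked out 11, where chance picks about 1 set in 20.

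Among the called genes, *Slc16a3* stood at 50.5 CPM in running LCR 3, against 7.19 to 19.6 CPM in the other LCR runners. *Amotl2* stood at 34.8 CPM in running HCR 2, against 17.3 to 21.1 CPM in the other HCR runners. *Ahcyl2* stood at 12.7 CPM in the same library, against 17.3 to 19.1 CPM. *Hcn2* stood at 21.1 CPM in running HCR 3, against 11 to 13.7 CPM. *Eci2* stood at 17.3 CPM in running HCR 4, against 27.5 to 30.7 CPM. *Nfkbia* stood at 267 CPM in running LCR 4, against 197 to 213 CPM. *LOC108349628* at 0.55 CPM in running HCR 1 and *LOC102555790* at 0.492 CPM in running LCR 2 are single counts in groups otherwise at 0.

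Among the summed lists, fatty acid uptake and oxidation stood at 3960 CPM in running LCR 3, against 4990 to 5310 CPM in the other LCR runners. Immediate early genes stood at 904 CPM in running HCR 1, against 1350 to 1490 CPM. Lymphocyte and neutrophil markers stood at 48.1 CPM in running LCR 1, against 9.41 to 17.6 CPM.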

How the results depend on the processing

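The 63 running calls became 64 with RLE factors, 61 with upper-quartile factors, 69 with no filter, 61 with a stricter filter, 92 with DESeq2, 52 with voom and quality weights and 63 with library sizes that leave mitochondrial mRNAs out. They became 35 with only the 2 running groups in the fit, 0 with the line of the title and 35 without both conflicting libraries; with the title's line each group holds 1 library of the other genotype, and the other 2 settings have fewer samples. Leaving out 1 library gave 32 to 67 running calls and 182 to 337 sedentary calls, with the low of 182 without LCR sedentary 7. The difference of differences gave 0 calls in every setting and refit that holds all 4 groups. Of the 63 genes, 26 kept their call in all 26 refits, and *LOC108349628* in the 24 that tested it. Except under the line of the title, where 0 kept it, 16 kept their call in all other settings and 6 more in all others that tested them (9 or 10 of the 11 settings did). No called gene changed direction. The replicate block gave 53 running calls, 50 of them among the 63. Deviations of same-numbered runners from their group means correlated at 0.162, 0.0455, -0.0623, -0.0626 and 0.0473, and 2 of 5 numbers correlated best with their own. For same-numbered sedentary rats the correlations ran from -0.0884 to 0.257. So few pairs cannot decide whether the replicate numbers pair the samples.

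Among named genes without a call, signs changed with the line of the title for *Myh7* (-0.02), *Tnnt1* (-0.01), *Slc16a1* (0.10), *Vegfa* (0.14) and *Ankrd2* (0.26), and without both conflicting libraries for *Slc16a1* (0.02) and *Vegfa* (0.05). Without 1 library, *Myh1* lay between -0.97 and 0.63, *Myh4* between -0.49 and 1.68, *Tnnt1* between -0.03 and 0.13, *Slc16a1* between -0.15 and 0.04, *Cs* between 0.00 and 0.11 and *Vegfa* between -0.20 and 0.10. The causes of these changes were not tested. The library totals limit what can be seen in genes of a few CPM.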

Other observations

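Some genes differed by at least 2 on the log2 scale between the running lines and did not pass. The 4 given here were listed after their values were seen. *Prmt1*, an enzyme that methylates arginines of proteins, had 5.50, 3.86, 2.73, 72.5 and 0 CPM in running HCR 1 to 5, against 110, 100, 64.1, 115 and 136 CPM in running LCR 1 to 5 (log2 fold change -2.72, SE 0.68, adjusted p = 0.069). Running HCR 4 was the only HCR runner at the level of the LCR runners, as it was for *Ackr4* and *LOC102555790*. In sedentary rats the difference was -4.75 (adjusted p = 0.000263), and without running HCR 4 it was -4.97 in runners (adjusted p = 0.000351). *Prmt1* passed in 3 of the 37 other settings and refits, over which its difference in runners ran from -4.97 to -0.86.

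*Usp11*, a ubiquitin protease, had 41.2, 42.5, 57.3, 59.1 and 52.7 CPM in running HCR 1 to 5, against 1.11, 22.2, 1.70, 1.24 and 12.5 CPM in running LCR 1 to 5 (log2 fold change 2.67, adjusted p = 0.0869). All HCR libraries lay above all LCR libraries, and running HCR 4 was the highest of them. Within LCR, 3 libraries stood below 2 CPM, and running LCR 2 and 5 stood apart from them. *LOC120095255* had 0.55, 0.552, 0.682, 3.94 and 1.82 CPM in running HCR 1 to 5, against 0.553, 0, 53.3, 87.2 and 93.3 CPM in running LCR 1 to 5 (log2 fold change -5.03, adjusted p = 0.108). In that gene, running LCR 1 and 2 were at the level of the HCR runners and the other 3 were not. *Myl10*, a myosin light chain, had 0.552 to 3.30 CPM in running HCR and 1.11 to 19.9 CPM in running LCR (log2 fold change -2.22, adjusted p = 0.069).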
